A study of Mus musculus with 12 samples.

Results

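The state of mouse cortical cultures that had received a miR-29 lentivirus and then oxygen-glucose deprivation (OGD) was compared, across all genes, with that of cultures that had received an empty lentivirus and a sham change of buffer. The members were chosen by their labels: the 3 OGD-miR-29 libraries and 2 of the 3 sham-empty libraries, 5 of the 12 libraries of the series. The column of sham-empty replicate 3 was left out because it did not hold read counts. All cultures came from C57BL6 cortex of embryonic day E16.5-E17.5. They were infected on day 6 in culture at a total multiplicity of infection of 2, with a virus carrying miR-29 or with an empty one. On day 14 the OGD-miR-29 and OGD-empty cultures spent 3 h without oxygen and glucose and then 4 h in normal medium, while the sham-empty and sham-miR-29 cultures were rinsed with the same buffer and kept in normal oxygen. Every group therefore carried a lentivirus and none was uninfected. OGD-miR-29 and sham-empty differ in both the virus and the OGD, and the shares of these in a difference between them cannot be told apart.

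OGD is a culture model of ischemic stroke, in which loss of oxygen and glucose stops ATP production, releases glutamate and disturbs calcium and zinc balance in neurons. miR-29 is a microRNA family of 3 mature forms that share 1 seed, the stretch of a microRNA that pairs with sites in the 3′ UTR of target mRNAs and lowers their level or translation. Known miR-29 targets include DNA methyltransferases, collagens and pro-apoptotic BCL2-family genes, and miR-29 is abundant in mature neurons and glia. The labels do not say which family member the virus carried.

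The mature forms are shown because the seed, bases 2 to 8 and here in capitals, defines the target sites examined further on. They are RefSeq sequences on GRCm38.p6, of which miR-29c lies at chr1:195037600-195037621 on the plus strand and miR-29a at chr6:31062673-31062694 on the minus strand.
miR-29a-3p: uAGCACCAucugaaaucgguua
miR-29b-3p: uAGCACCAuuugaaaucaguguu
miR-29c-3p: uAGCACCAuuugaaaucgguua
All forms carried the same seed and differed in the bases after it.

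The libraries were shallow and unequal. Summed counts were 1337564 and 2389020 in sham-empty and 6616920, 2518938 and 1901594 in OGD-miR-29. Rows of the mitochondrial genome held 82.69% and 84.14% of them in sham-empty and 82.25%, 78.52% and 74.07% in OGD-miR-29, and outside these rows the 11 usable libraries summed to between 231500 and 1362484. Overlapping and neighbouring genes share reads in the table, so these are sums over rows. OGD-empty replicate 2 stood apart from the other libraries, with 57.57% in mitochondrial rows and a median level of the longest 20% of genes 1.06 (log2) above the sham-empty mean, against 0.38 and 0.43 in the other OGD-empty libraries. Values that use OGD-empty are also given without it where that ended a call of a named gene, turned a direction or moved the value by over 1.5 times, and for the distances and length classes.

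The main test, on 11 libraries with 2 of sham-empty, did not separate OGD-miR-29 from sham-empty at any single gene. Of 12119 genes tested with edgeR's quasi-likelihood test, 0 (0.00%) passed an adjusted p of 0.05, and the lowest adjusted p was 0.212. At an unadjusted p under 0.05 there were 841 genes (6.94%), where 606 would be 5% of those tested. Of these, 395 were higher (3.26%) and 446 lower (3.68%) in OGD-miR-29. The CPM of all OGD-miR-29 libraries lay above both sham-empty libraries for 1634 genes (13.5%) and below both for 2068 (17.1%). DESeq2 and limma-voom also called 0 genes, with 460 and 799 at an unadjusted p under 0.05. Sham-empty entered 2 further comparisons, which therefore share its libraries: OGD-empty against it gave 617 calls (5.09%), and sham-miR-29 against it gave 0 in edgeR (0.00%, with 405 or 3.34% at an unadjusted p under 0.05). In bulk RNA, fewer cells of a type and less RNA per cell cannot be told apart in any of these values.

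The comparison limited how large a difference could be, for part of the genes. The 95% interval of the log2 fold change lay within 2-fold in either direction for 4442 genes (36.7%) and within 4-fold for 11228 (92.6%), and the median distance from estimate to limit was 0.8. The SD of the log2 fold changes over all genes was 0.49, against 0.75 for OGD-empty and 0.42 for sham-miR-29, each relative to sham-empty. A fitted difference of over 2-fold was found for 473 genes (3.9%) in OGD-miR-29, 1940 (16%) in OGD-empty (1426 or 11.9% without its replicate 2) and 305 (2.52%) in sham-miR-29.

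The count of calls depended on the libraries and the model of the fit. With the 5 compared libraries alone, 16 genes passed, 3 higher and 13 lower. This fit also filtered and scaled the counts anew and tested 10555 genes, and the parts of these changes were not tested. With these and the dissection day as a block, a fit that leaves 1 residual degree of freedom among the libraries, 154 passed, 21 higher and 133 lower. The 133 lower genes had a median span of 226810 bp, against 23007 bp over all genes. In the 11-library fit the block gave 0 calls. Leaving out OGD-empty replicate 2, or OGD-miR-29 replicate 3, gave 2 calls, the metallothionein genes Mt1 and Mt2. The authors' deposited table of the same comparison lists the same 2 genes at a false discovery rate under 0.05, out of 12145, and 558 genes at p under 0.05. Its log2 fold changes came within 0.01 of a refit with sham-empty replicate 3 and the block for 70.7% of genes, and of one without that column for 4.16%.

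Distances between libraries were taken over all genes at once. The distance was the root mean square difference of log2 CPM between 2 libraries, where CPM is the count relative to the TMM-scaled library size. The 6 OGD-miR-29 to sham-empty pairs lay 0.643 ± 0.103 apart on average (SD over pairs that share libraries), between 0.479 and 0.761, and the 2 sham-empty libraries lay 0.66 apart. The OGD-miR-29 libraries lay 0.481 to 0.576 from each other. OGD-empty lay 0.829 ± 0.124 from sham-empty and 0.917 ± 0.167 from OGD-miR-29, which became 0.752 and 0.823 without OGD-empty replicate 2. With counts thinned to equal depth, OGD-miR-29 lay 0.659 from sham-empty on average, between 0.596 and 0.707. Pairs within OGD-miR-29 lay inside that range, at 0.633 to 0.653, and the single pair within sham-empty just below it, at 0.593. Over genes of at least 20 CPM, which carry less counting error, the mean was 0.492, between 0.313 and 0.626. Within sham-empty it was 0.379 and within OGD-miR-29 0.379 to 0.454.

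**Figure D1:**
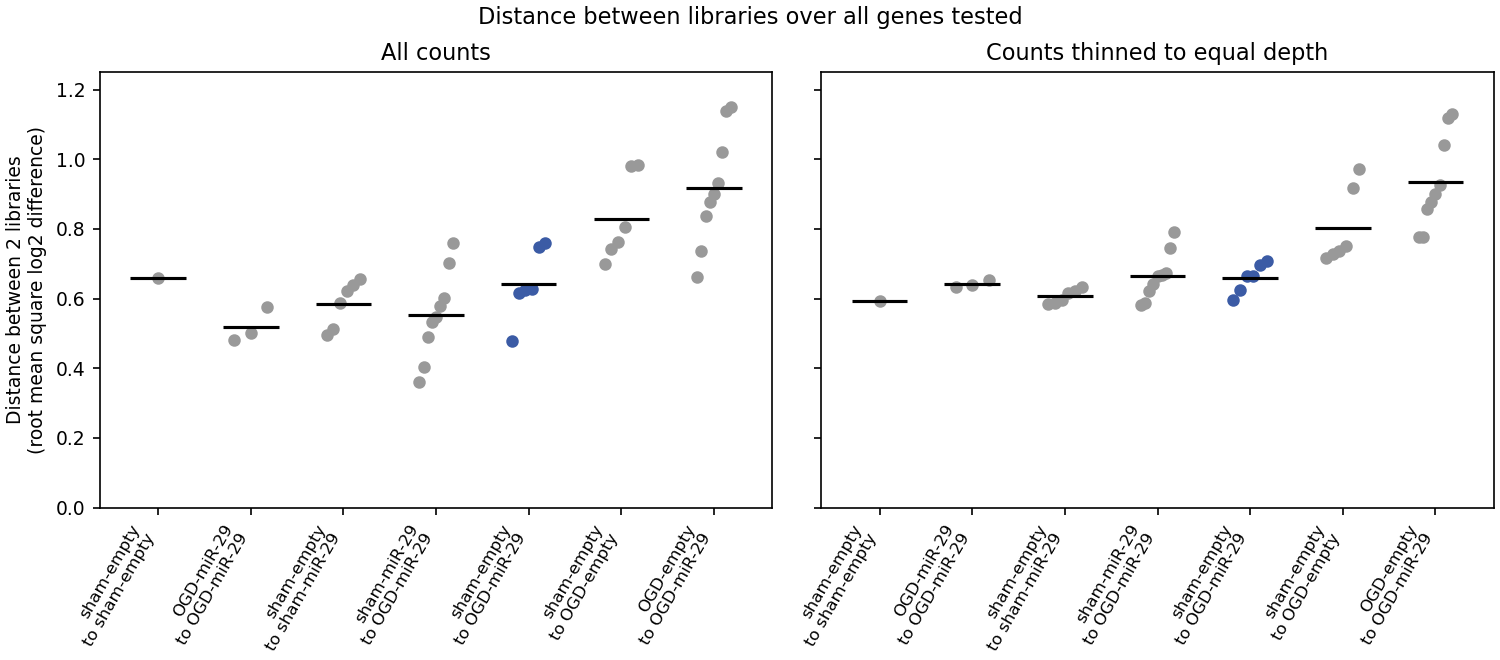
Root mean square log2 difference between 2 libraries over all genes tested, by pair of groups, from all counts (left) and from counts thinned to equal depth (right). Points are pairs of libraries and lines their means. OGD-miR-29 to sham-empty pairs (blue, 0.479 to 0.761 at left) lie around the single pair within sham-empty (0.66), and pairs of OGD-empty with OGD-miR-29 reach 1.15.

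OGD-miR-29 differed from OGD-empty at many genes and from sham-miR-29 at few. Against OGD-empty, 4501 genes were called (37.1%), 2085 higher (17.2%) and 2416 lower (19.9%), and 4180 without OGD-empty replicate 2. Against sham-miR-29 2 genes were called (0.0165%), Mt1 and Mt2, both higher. With the dissection day as a block this comparison gave 5 calls, and in the compared libraries with the block 141.

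The highest-ranked genes were metallothioneins, small cysteine-rich proteins that bind zinc and copper and are induced by free zinc and by oxidative stress. Mt1 (chr8:94179082-94180327, plus strand) stood at 25.9 and 23.2 CPM in sham-empty and at 77.7, 85.9 and 50 CPM in OGD-miR-29. All OGD-miR-29 libraries were above both sham-empty libraries, with the third the lowest of them. The log2 fold change was 1.55 ± 0.28 (SE, 95% interval 0.96 to 2.14) with an adjusted p of 0.212. Mt2 (chr8:94172664-94173568), its neighbour on the same strand, stood at 41.8 and 31.3 CPM in sham-empty and at 109, 116 and 65.9 CPM in OGD-miR-29. It showed the same order of libraries, with a log2 fold change of 1.43 ± 0.28 and an adjusted p of 0.22. Reads of Mt1 may be counted for Mt2, since Mt1 lies within 10 kb downstream and held 0.69 of the Mt2 count, so the pair may be partly 1 measurement. In the authors' deposited table Mt1 has a log2 fold change of 1.82 (false discovery rate 0.0123) and Mt2 of 1.71 (0.0128).

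Both metallothioneins passed the test against the other groups, with calls against OGD-empty that rested on single libraries. Mt1 was 44.3, 35.7 and 45.6 CPM in OGD-empty and 24.6, 14.6 and 20.8 CPM in sham-miR-29. It was higher in OGD-miR-29 by 0.77 ± 0.22 (log2) than in OGD-empty, at an adjusted p of 0.0114, and by 1.83 ± 0.23 than in sham-miR-29, at an adjusted p of 0.000743. Mt2 was higher by 0.62 ± 0.22 than in OGD-empty (adjusted p 0.0346) and by 1.79 ± 0.23 than in sham-miR-29 (0.000743). The Mt1 call against OGD-empty was lost without OGD-miR-29 replicate 2 (0.62 ± 0.24, adjusted p 0.0612). The Mt2 call was lost without OGD-empty replicate 2 (0.47 ± 0.22, adjusted p 0.097) or 3 (0.0825) and without OGD-miR-29 replicate 1 (0.0993) or 2 (0.147). Mt3, the metallothionein typical of neurons, did not share the pattern, with 13.9 and 14.5 CPM in sham-empty and 14.3, 16.9 and 13.9 CPM in OGD-miR-29. Its libraries overlapped, and its log2 fold change was 0.08 ± 0.27.

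The zinc exporter Slc30a1, another known target of the zinc-sensing factor MTF1, was at 7.96 and 10.4 CPM in sham-empty and 18, 24.8 and 23.1 CPM in OGD-miR-29, without overlap. Its log2 fold change was 1.20 ± 0.34 (adjusted p 0.709). Hmox1, the stress-inducible haem oxygenase, was at 17.9 and 10.4 CPM in sham-empty and 28.3, 38.6 and 27.4 CPM in OGD-miR-29, also without overlap, with a log2 fold change of 1.20 ± 0.32 (adjusted p 0.709). Both were chosen after their values were seen. Against OGD-empty Hmox1 was higher by 0.73 ± 0.24 (adjusted p 0.0249, but 0.118 without OGD-miR-29 replicate 2 and 0.113 without OGD-empty replicate 1), while Slc30a1 gave 0.31 ± 0.25 (0.333). Of 20 antioxidant and NRF2 genes tested, 6 were higher and 0 lower at an unadjusted p under 0.05 (3.26% and 3.68% of all genes). Without overlap 8 were higher and 1 lower (13.5% and 17.1%). The 6 were Mt1, Mt2, Hmox1, Txnrd1, Gpx4 and Sqstm1, so the count repeats genes already given above. Gpx4 may share reads with Sbno2, and Sqstm1 with 3010026O09Rik. The list median was 0.39, against -0.01 over all genes, and over the alternative settings it ran from 0.03, among genes alone in their region, to 0.42. Txnrd1, thioredoxin reductase, gave 0.82 ± 0.29 with 12.9 and 12.7 CPM in sham-empty and 20.7 to 23.9 CPM in OGD-miR-29.

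**Figure D2:**
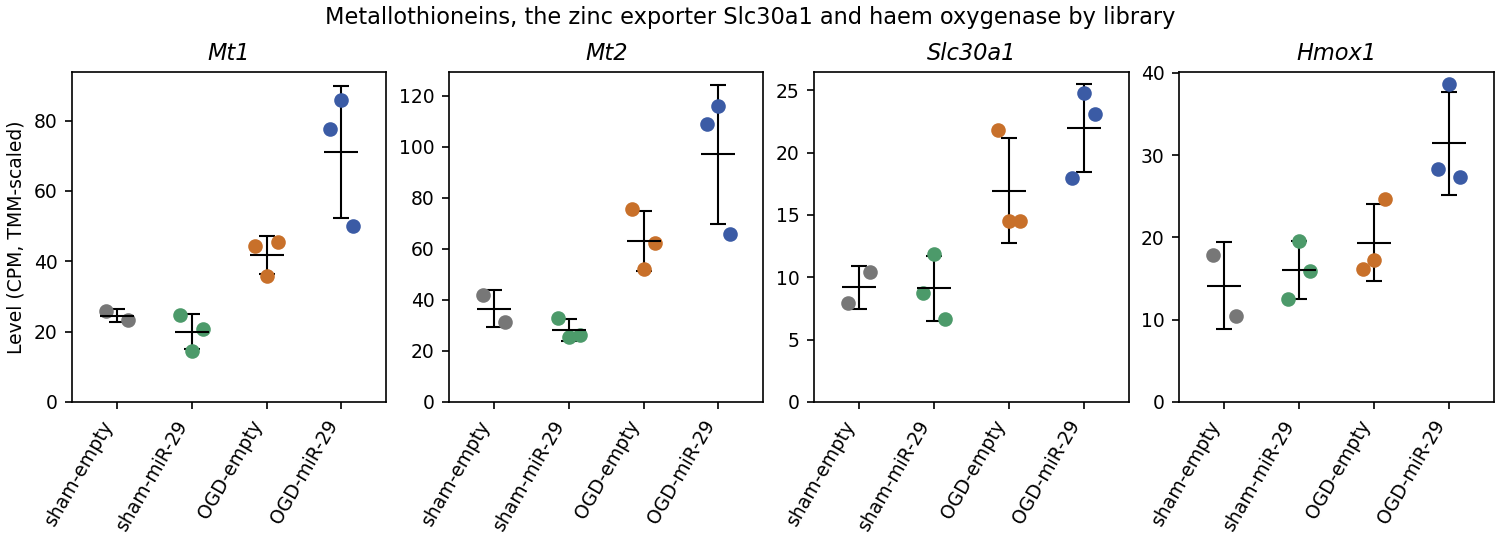
CPM of Mt1, Mt2, Slc30a1 and Hmox1 in each library (points) with the group mean and SD, by group. OGD-miR-29 libraries lie above both sham-empty libraries for all 4 genes, with Mt1 at 50 to 85.9 against 23.2 and 25.9 CPM.

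The promoters of Mt1 and Mt2 are shown because these genes stood highest together. Each sequence runs from 250 bases before to 50 bases after the RefSeq start (GRCm38.p6, plus strand), and capitals mark matches on either strand to TGCNCNC, a loose form of the core of the metal response element. Mt1 lies at chr8:94178839-94179138 and Mt2 at chr8:94172368-94172667.
Mt1: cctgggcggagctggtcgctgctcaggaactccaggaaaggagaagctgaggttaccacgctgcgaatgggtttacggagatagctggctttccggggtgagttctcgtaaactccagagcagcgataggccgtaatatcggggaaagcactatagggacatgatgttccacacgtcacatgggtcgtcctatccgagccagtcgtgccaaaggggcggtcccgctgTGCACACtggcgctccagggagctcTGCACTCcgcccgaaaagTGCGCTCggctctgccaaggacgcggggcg
Mt2: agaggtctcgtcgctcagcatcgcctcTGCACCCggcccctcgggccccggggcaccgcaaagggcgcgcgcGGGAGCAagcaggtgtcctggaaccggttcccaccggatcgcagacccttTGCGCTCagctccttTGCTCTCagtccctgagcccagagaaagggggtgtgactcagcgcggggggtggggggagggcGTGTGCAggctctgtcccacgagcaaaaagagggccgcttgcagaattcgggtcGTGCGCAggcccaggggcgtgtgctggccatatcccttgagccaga
Mt1 held 3 matches, a number reached by 7.1% of 32851 promoters, and Mt2 held 6, reached by 0.2%. Slc30a1 held 2 (20.2%) and Mt3 held 3 (7.1%). At least 1 match was found in 51.0% of promoters, so a match alone is common.

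Protein-folding and protein-degradation genes were mostly above sham-empty, without single calls. Of 19 endoplasmic reticulum chaperone genes tested, 7 were higher and 0 lower at an unadjusted p under 0.05 (3.26% and 3.68% of all genes). Their median log2 fold change was 0.35 and ran from 0.28 to 0.49 over the alternative settings. Pdia6, a disulfide isomerase, was at 18.9 and 20.8 CPM in sham-empty and at 33.1, 30.7 and 50 CPM in OGD-miR-29. Its libraries did not overlap, and its log2 fold change was 0.91 ± 0.28, with Atp6v1c2 as a neighbour that may share reads. Herpud1, which takes part in degrading misfolded endoplasmic reticulum proteins, gave 0.79 ± 0.28 and P4hb, a disulfide isomerase, 0.75 ± 0.25. Hspa5, the main chaperone of the endoplasmic reticulum, overlapped between groups, at 123 and 99.5 CPM in sham-empty and 121, 111 and 201 CPM in OGD-miR-29 (0.38 ± 0.25). Rabepk may share its reads. Of the list, 9 genes rose and 0 fell against OGD-empty, where 17.2% and 19.9% of all genes did, Pdia6 by 1.22 ± 0.23 (adjusted p 0.000879).

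Of 26 proteasome subunit genes, 7 were higher and 0 lower at an unadjusted p under 0.05 (3.26% and 3.68% of all genes), and 11 were higher without overlap (13.5%). Their median was 0.14, and 0.07 to 0.62 over the settings. It was 0.25 to 0.44 without OGD-miR-29 replicate 1 or 2 or a sham-empty library. Without OGD-miR-29 replicate 3 it was 0.12, and with the length trend removed in a blocked fit 0.07. By library it was 0.13, 0.17 and 0.63 above the sham-empty mean, so the third OGD-miR-29 library stood highest. Psmb6, a catalytic subunit, was at 18.9 and 10.4 CPM in sham-empty and at 20.6, 29.1 and 31.2 CPM in OGD-miR-29 (0.92 ± 0.31). Against OGD-empty 17 of the 26 rose and 0 fell, where 17.2% and 19.9% of all genes did. Among 14 heat shock protein genes 1 was higher at an unadjusted p under 0.05 (3.26% of all genes), the constitutive chaperone Hspa8. It was at 38.8 and 36.5 CPM in sham-empty and 57.9, 61.4 and 67.3 CPM in OGD-miR-29 (0.73 ± 0.23, adjusted p 0.709). Snord14c may share its reads. The list median was 0.02 and changed sign between settings, from -0.06 to 0.60.

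Medians of nuclear-encoded energy genes lay slightly above sham-empty in OGD-miR-29 and below it in OGD-empty. The 39 oxidative phosphorylation genes had a median log2 fold change of 0.15 in OGD-miR-29 and of -0.81 in OGD-empty, each relative to sham-empty. The first ran from 0.04 to 0.25 over the settings, lowest with the length trend removed in a blocked fit. At an unadjusted p under 0.05, 3 were higher (Sdhc, Cox4i1 and Ndufb8) and 0 lower, where 3.26% and 3.68% of all genes were. Cox4i1, a cytochrome c oxidase subunit, was at 87.5 and 68.3 CPM in sham-empty, 94.2, 111 and 138 CPM in OGD-miR-29 and 40.3, 52.4 and 40.2 CPM in OGD-empty. OGD-miR-29 lay highest and OGD-empty lowest, without overlap among the 3 groups, although the neighbour Gm20388 may share these reads. Sdhc, a subunit of succinate dehydrogenase, gave 0.98 ± 0.29 and may share reads with 1700009P17Rik. In the direct comparison with OGD-empty 35 of the 39 rose and 0 fell, with a median of 1.05, where 17.2% and 19.9% of all genes did. These genes had a median span of 7206 bp, against 23007 bp over all genes. In the shortest 20% of all genes the median was -0.42 in OGD-empty relative to sham-empty (-0.35 without OGD-empty replicate 2). OGD-miR-29 lay 0.54 above OGD-empty there, and the part of gene length in these values was not tested.

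Glycolysis genes had a median of 0.25 in OGD-miR-29, which ran from 0.1 to 0.35 over the settings, and of -0.40 in OGD-empty, or -0.26 without OGD-empty replicate 2. Of 21, 18 lay above and 3 below sham-empty, and 9 were higher and 0 lower without overlap (13.5% and 17.1% of all genes). At an unadjusted p under 0.05, 3 were higher and 0 lower (3.26% and 3.68% of all genes), and 8 rose against OGD-empty (17.2%). Pfkm, the muscle-type phosphofructokinase, gave 0.77 ± 0.24 (27.8 and 35.3 CPM in sham-empty, 45.9, 60.7 and 57.2 CPM in OGD-miR-29). Asb8 may share its reads. The 26 cytosolic ribosomal protein genes had medians of 0.07 in OGD-miR-29, which changed sign between settings (-0.08 to 0.39), and -1.0 in OGD-empty. Against OGD-empty 18 rose (17.2% of all genes). These are short genes too, with a median span of 4015 bp. Rpl8, a subunit of the large ribosomal particle, gave 0.92 ± 0.26 against sham-empty and may share reads with Zfp647.

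The mitochondrially encoded protein genes went the other way. All 13 were lower without overlap (17.1% of all genes), 9 of them at an unadjusted p under 0.05 (3.68%) and 0 at the adjusted threshold. Their median log2 fold change was -0.79. Rows of the mitochondrial genome share reads, so they are close to 1 measurement. mt-Nd3, a complex I subunit, was at 746 and 671 CPM in sham-empty and at 542, 358 and 325 CPM in OGD-miR-29. All OGD-miR-29 libraries lay below both sham-empty libraries, by 0.79 ± 0.34 in the fit (log2 fold change -0.79, adjusted p 0.709). By library the list median was -0.38, -0.98 and -1.12. OGD-empty libraries spread widely at this gene, from 320 to 871 CPM, and lay 0.28 below sham-empty in the fit (-0.28). Without OGD-empty replicate 2 the direction turned, with a value of 0.07 ± 0.29. The direct comparison with OGD-empty then called 9 of the 13 genes lower, where 2329 of all 12032 genes then tested were. With that library it called 0 of the 13 lower, where 19.9% of all genes were. Across the OGD-miR-29 libraries the share of counts in mitochondrial rows fell in the same order, at 82.25%, 78.52% and 74.07%. In OGD-empty it did not go with the level of mt-Nd3. Replicates 1 and 3 of that group held 76.37% and 73.13%, below both sham-empty libraries (82.69% and 84.14%). Yet mt-Nd3 gave 0.07 ± 0.29 there. The share is a sum over these same rows, and its part in the values was not tested.

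Medians of 4 lists of neuronal excitability genes were below sham-empty in OGD-miR-29 and above it in OGD-empty, with few single genes past an unadjusted p of 0.05. Median log2 fold changes relative to sham-empty were -0.51 and 1.11 for 14 ionotropic glutamate receptor genes, -0.44 and 1.07 for 11 GABA-A receptor genes, -0.42 and 1.29 for 19 voltage-gated channel genes and -0.68 and 1.5 for 21 synaptic adhesion genes, OGD-miR-29 first in each pair. Without OGD-empty replicate 2 the OGD-empty medians were 0.54, 0.57, 0.65 and 0.61. At an unadjusted p under 0.05, 1, 1, 3 and 0 genes of these lists were lower in OGD-miR-29 than in sham-empty, where 3.68% of all genes were, and 0 were higher. Without overlap, 9, 7, 12 and 18 were lower, against 17.1% of all genes. Without sham-empty replicate 1 the glutamate receptor and channel medians were -0.27 and -0.26, without sham-empty replicate 2 the channel median was -0.66, and without OGD-miR-29 replicate 1 the GABA-A receptor median was -0.68.

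Gria2, the AMPA receptor subunit that limits calcium entry, was at 93.5 and 90.9 CPM in sham-empty and at 78.6, 43.7 and 53.8 CPM in OGD-miR-29. The OGD-miR-29 libraries lay below both sham-empty libraries, and the log2 fold change was -0.64 ± 0.27 (adjusted p 0.709). Grin2b, an NMDA receptor subunit, was at 70.6 and 74.7 CPM in sham-empty, 51.3, 37.8 and 47.1 CPM in OGD-miR-29, and 158, 327 and 141 CPM in OGD-empty. Its groups did not overlap, with OGD-empty highest and OGD-miR-29 lowest (-0.68 ± 0.36 relative to sham-empty, adjusted p 0.723). Against OGD-empty it fell by 2.2 on the log2 scale (-2.2 ± 0.32, adjusted p 0.000603). Gabra2, a GABA-A receptor subunit, was at 26.9 and 17.9 CPM in sham-empty and 10.1, 8.27 and 7.21 CPM in OGD-miR-29, again without overlap (-1.31 ± 0.36, adjusted p 0.709). Scn3a, a sodium channel of developing neurons, gave -0.75 ± 0.32. Among synaptic adhesion genes the only member above sham-empty was Nlgn3, a postsynaptic neuroligin, at 0.64 ± 0.33, with reads possibly shared with Gm21986.

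In the direct comparison with OGD-empty, 12 of 14 ionotropic glutamate receptor genes, 6 of 11 GABA-A receptor genes, 19 of 19 voltage-gated channel genes and 20 of 21 synaptic adhesion genes were called lower in OGD-miR-29, where 19.9% of all genes were, and 0 of each list higher. Without OGD-empty replicate 2 these counts were 11, 6, 19 and 21. The median differences were then -1.12, -0.98, -1.13 and -1.23, against -1.58, -1.27, -1.75 and -2.22 with it.

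**Figure D3:**
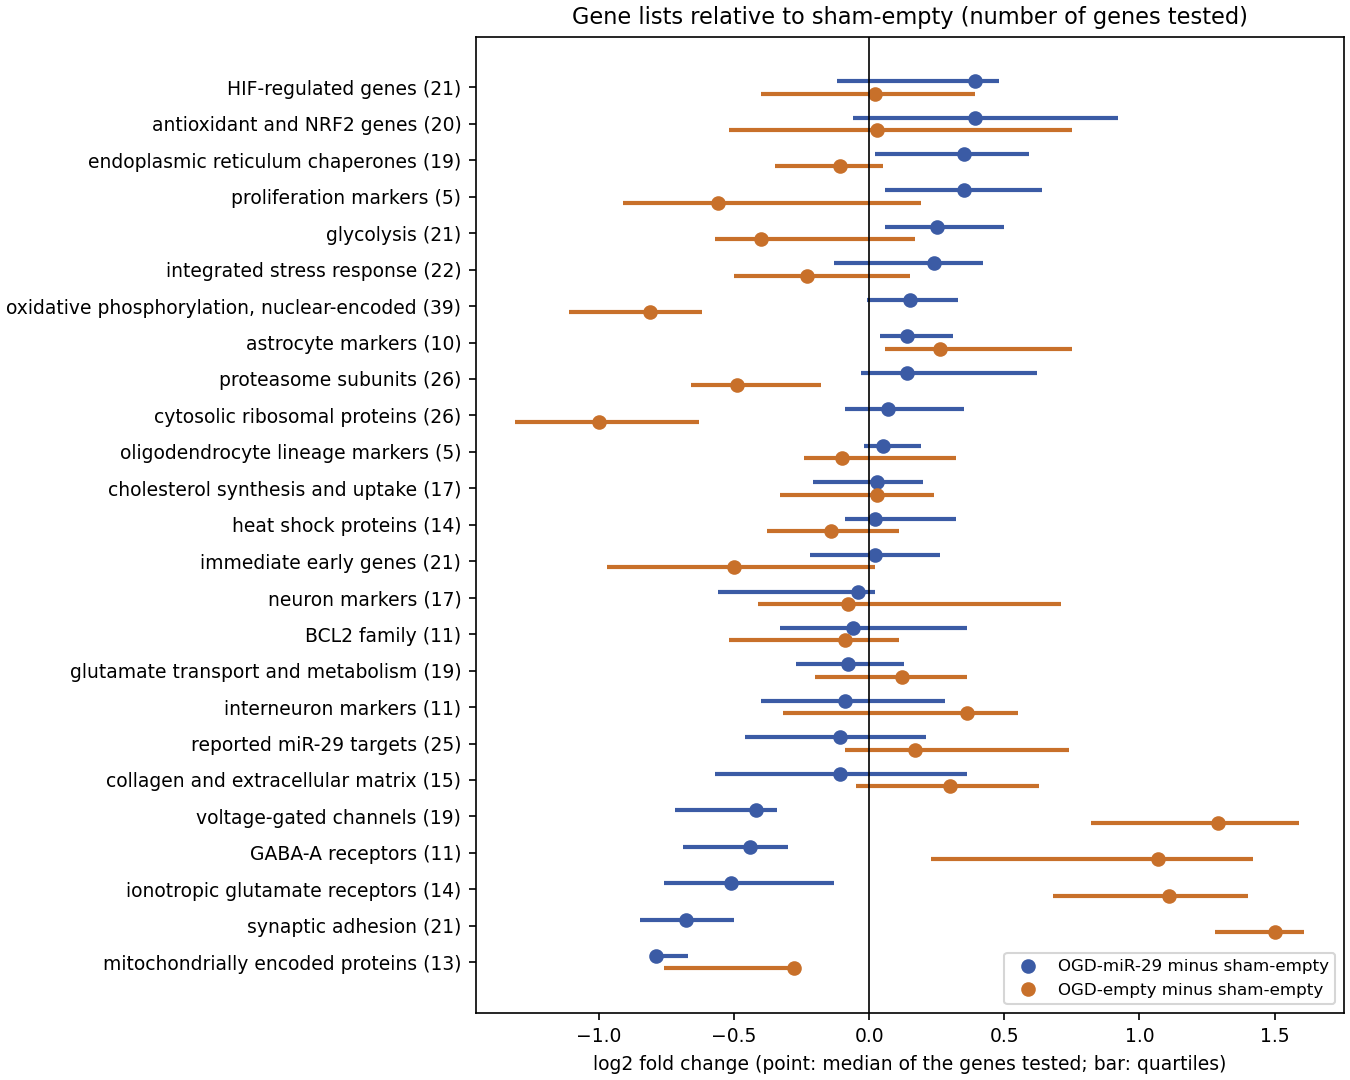
Median log2 fold change (points) and quartiles (bars) of the genes tested in each list of at least 5 genes, for OGD-miR-29 (blue) and OGD-empty (orange) relative to the same sham-empty libraries. Receptor, channel and adhesion lists lie below 0 in OGD-miR-29 (-0.42 to -0.68) and above 1 in OGD-empty (0.54 to 0.65 without OGD-empty replicate 2), and oxidative phosphorylation lies at 0.15 and -0.81.

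These lists hold long genes, and length went with the fold change over the whole table. In 5 equal classes of genes from the shortest to the longest, the median log2 fold change of OGD-miR-29 relative to sham-empty was 0.07, 0.12, 0.04, -0.05 and -0.27. In OGD-empty it was -0.42, -0.28, -0.10, 0.20 and 0.70, and without OGD-empty replicate 2 it was -0.35, -0.18, -0.03, 0.22 and 0.46. In the longest class, of 2385 genes with spans over 79108 bp, 149 were lower and 18 higher at an unadjusted p under 0.05. Of all genes 3.68% and 3.26% were. Each OGD-miR-29 library showed the lower level of this class, at -0.19, -0.29 and -0.27 from the sham-empty mean. A further fit removed the length trend of each library and added the dissection day as a block, and the parts of these changes were not tested. The trend was fitted to these same genes, which brought the longest class to -0.02, so medians of long-gene lists were drawn toward 0. In that fit the medians of the ionotropic glutamate receptor, GABA-A receptor, channel and adhesion lists were -0.15, -0.22, -0.12 and -0.08. That of the endoplasmic reticulum chaperones stayed at 0.35 and that of the antioxidant list was 0.28.

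**Figure D4:**
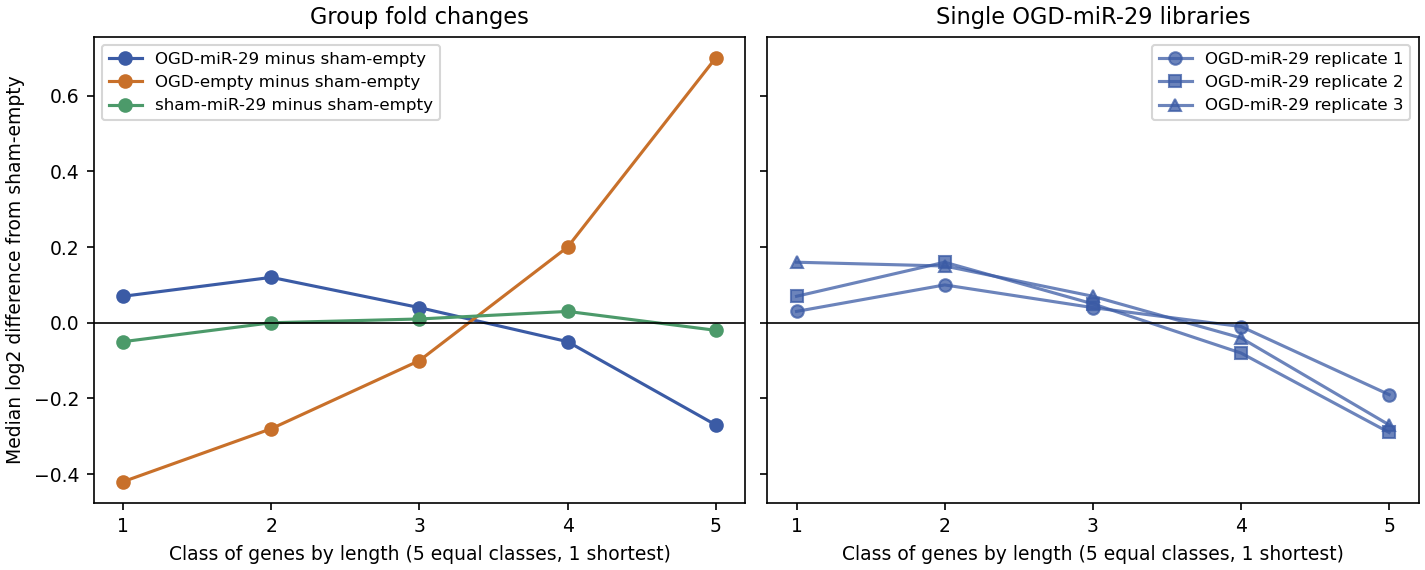
Median log2 difference from sham-empty in 5 equal classes of genes by span, for the 3 other groups (left) and for each OGD-miR-29 library (right). In the longest class OGD-miR-29 lies at -0.27 and OGD-empty at 0.70 (0.46 without its replicate 2), and the 3 OGD-miR-29 libraries lie between -0.19 and -0.29.

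Glutamate handling genes lay close to sham-empty. Slc1a2, the main astrocytic glutamate transporter, was at 37.8 and 24.9 CPM in sham-empty, 30.5, 26.0 and 17.8 CPM in OGD-miR-29 and 57.6, 58.7 and 55.2 CPM in OGD-empty. The first 2 groups overlapped and OGD-empty lay above both. The log2 fold change relative to sham-empty was -0.29 ± 0.28 (95% interval -0.86 to 0.29), and relative to OGD-empty -1.18 ± 0.23 (adjusted p 0.000966). Slc1a3, the other astrocytic transporter, gave 0.19 ± 0.27, with an interval of -0.37 to 0.75. Slc7a11, the cystine-glutamate exchanger, was at 5.97 and 5.21 CPM in sham-empty, 8.27, 5.91 and 9.13 CPM in OGD-miR-29 and 17, 18.5 and 22.5 CPM in OGD-empty. It overlapped between the first 2 groups (0.50 ± 0.40, interval -0.32 to 1.32) and was lower than in OGD-empty by -1.28 ± 0.25 (adjusted p 0.00109). Of 19 glutamate transport and metabolism genes 1 was higher and 1 lower at an unadjusted p under 0.05 (3.26% and 3.68% of all genes), and the median was -0.08.

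Immediate early genes showed no common direction. The 21 of them had a median of 0.02, with 11 above and 10 below 0. At an unadjusted p under 0.05, 1 was higher and 1 lower (3.26% and 3.68% of all genes). Fos was at 21.9 and 34.7 CPM in sham-empty and 22, 31.1 and 18.3 CPM in OGD-miR-29, with overlap (-0.28 ± 0.29). It was higher than in OGD-empty by 0.83 ± 0.26 (adjusted p 0.017, but 0.101 without OGD-miR-29 replicate 2). Atf3, a stress-induced transcription factor, was at 18.9 and 16.2 CPM in sham-empty and 13.2, 14.6 and 13.9 CPM in OGD-miR-29, slightly lower without overlap (-0.32 ± 0.29), and was higher than in OGD-empty by 1.08 ± 0.26 (adjusted p 0.0041). Atf4, the central factor of the integrated stress response, gave 0.21 ± 0.22, with reads possibly shared with Rps19bp1. The 22 genes of that response had a median of 0.24 (0.18 to 0.37 over the settings), with 0 at an unadjusted p under 0.05 (6.94% of all genes). Of these 22 genes 15 lay above and 7 below sham-empty, and 9 were higher and 1 lower without overlap, where 13.5% and 17.1% of all genes were. HIF-regulated genes had a median of 0.39 over 21 genes (0.21 to 0.43 over the settings, lowest without sham-empty replicate 2). Of them 14 lay above and 7 below sham-empty, and 6 were higher and 3 lower without overlap (13.5% and 17.1% of all genes). At an unadjusted p under 0.05, 2 were higher and 0 lower (3.26% and 3.68% of all genes). These were P4ha1, a collagen prolyl hydroxylase, at 4.97 and 4.63 CPM in sham-empty and 9.19, 12.2 and 9.62 CPM in OGD-miR-29 (1.09 ± 0.42), and Vegfa, at 9.95 and 2.89 CPM and 9.74, 9.06 and 13.0 CPM (0.87 ± 0.41). Vegfa overlapped because the sham-empty libraries differed from each other. Over the settings P4ha1 ran from 0.97 to 1.24 and Vegfa from 0.11 to 1.86. Both rested on few sham-empty reads, where 3 counts are 2.98 and 1.74 CPM. Nfkb1 held 0 counts in both sham-empty libraries and 1.92 to 2.39 CPM in OGD-miR-29. A floor of 3 counts is 2.98 and 1.74 CPM in the sham-empty libraries, so no fold is given.

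**Figure D5:**
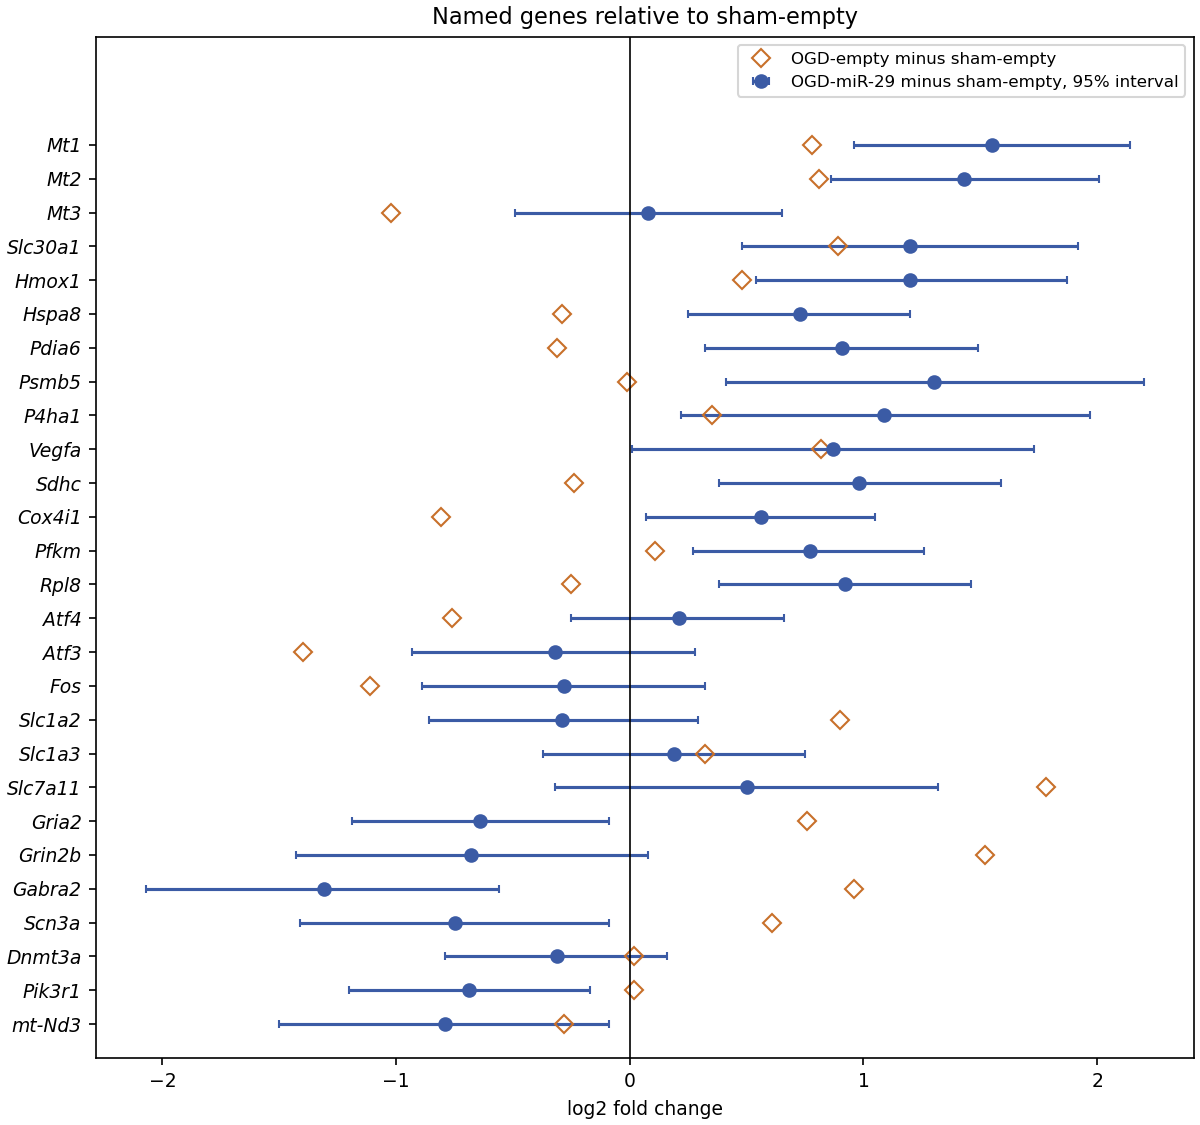
Log2 fold change of named genes in OGD-miR-29 relative to sham-empty, with 95% intervals (blue), and in OGD-empty relative to the same libraries (open orange diamonds). Mt1 (1.55) and Mt2 (1.43) stand highest in OGD-miR-29, and Grin2b lies at -0.68 in OGD-miR-29 and 1.52 in OGD-empty.

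Reported miR-29 targets had a median whose sign depended on the setting. Of 25 tested, 1 was higher (Vegfa) and 2 lower (Pik3r1 among them) at an unadjusted p under 0.05 (3.26% and 3.68% of all genes). The median was -0.11 against -0.01 over all genes, and -0.22 to 0.17 over the settings. Without overlap 0 were higher and 8 lower, where 13.5% and 17.1% of all genes were. The listed targets are long, with a median span of 81461 bp against 23007 bp over all genes. With the length trend of each library removed in a blocked fit their median was -0.02. Against OGD-empty 4 rose and 10 fell (17.2% and 19.9% of all genes), and without OGD-empty replicate 2 1 and 10 of the 24 then tested. Dnmt3a, a DNA methyltransferase, was at 55.7 and 49.2 CPM in sham-empty and 40.2, 45.3 and 40.9 CPM in OGD-miR-29. Its libraries did not overlap, but the 95% interval included 0 (-0.31 ± 0.23, interval -0.79 to 0.16). Pik3r1, a regulatory subunit of phosphoinositide 3-kinase, was at 42.8 and 36.5 CPM in sham-empty and 28.3, 18.1 and 26.4 CPM in OGD-miR-29 (-0.69 ± 0.25, adjusted p 0.709). The OGD-miR-29 libraries lay below both sham-empty libraries. Among pro-apoptotic BCL2-family targets, Bbc3 gave 0.52 ± 0.40, Hrk 0.21 ± 0.27 and Bcl2l11 -0.97 ± 0.49. Bbc3 may share reads with Sae1, and Hrk with Rnft2. Mcl1, an anti-apoptotic member, gave 0.02 ± 0.22.

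Sites of 3 of these targets are shown because they carry the full 8-base match to the seed, in capitals, in the 3′ UTR of GENCODE M21 on GRCm38. They lie at chr12:3911383-3911412 (Dnmt3a, plus strand), chr3:95661837-95661866 (Mcl1, plus) and chr5:118185080-118185109 (Hrk, plus).
Dnmt3a: gcccttgcccaggggaggtagcTGGTGCTA
Mcl1: aagcaggctagagtcttaaccaTGGTGCTA
Hrk: ggtgcttcacttcacagtttctTGGTGCTA
The match is TGGTGCTA, searched on the mRNA strand, and these 3 genes gave log2 fold changes of -0.31, 0.02 and 0.21. Of 10071 genes with a 3′ UTR, 3.52% held this match, 16.9% held only a 7-base match (TGGTGCT or GGTGCTA) and 79.6% held neither. The median log2 fold change was -0.126, -0.066 and 0.004 in these classes. Genes with a match had longer UTRs and spans. Among the third with the longest UTRs (over 2044 nt, where 7.15% held the 8-base match) the medians were -0.201, -0.140 and -0.162, so the classes lay within 0.1 of each other there. Relative to sham-empty, sham-miR-29 gave -0.002, 0.024 and 0.004 over all UTR lengths.

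Summed levels of neuron, astrocyte, microglia and oligodendrocyte lineage markers overlapped or nearly met between the groups. The 17 neuron markers summed to 1120 to 1160 CPM in sham-empty and 986 to 1120 CPM in OGD-miR-29, and 0 of them were at 0. The 10 astrocyte markers in the table summed to 128 to 142 and 135 to 158 CPM, the 4 microglia markers to 38.8 to 43.8 and 36.2 to 42.8 CPM, and the 5 oligodendrocyte lineage markers to 27.8 to 36.5 and 32.2 to 38.2 CPM. Interneuron markers spread more, with 433 to 500 CPM in sham-empty and 285 to 461 CPM in OGD-miR-29. Within the neuron list, the short-span Tubb3 and Nefl were higher (0.76 ± 0.23 and 0.68 ± 0.25, with reads possibly shared with Gm20388 and Nefm) and Map2 and Tbr1 lower (-0.60 ± 0.27 and -1.20 ± 0.52), all at adjusted p above 0.7. Of 11 endothelial and mural markers 1 was in the table, Vtn, at 4.97 and 7.52 CPM in sham-empty and 7.53, 10.6 and 16.8 CPM in OGD-miR-29, just without overlap (0.76 ± 0.41, adjusted p 0.725), with reads possibly shared with Poldip2. Several glial and endothelial markers of the lists, such as Gfap, Pdgfra and Olig2, were not analysed here.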

How the data were processed

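RNA-seq libraries of 4 groups were used. Total RNA was treated with DNase and depleted of ribosomal RNA, per the labels' protocols. The authors deposited read counts per gene symbol, as raw values. The submitters' processing notes name STAR 2.5.0a, featureCounts 1.4.3-p1, edgeR and mm10. The gene annotation, strandedness and counted region are not given in the sources used here. A deposited table of this comparison holds log2 fold changes, log2 CPM means, a score (LR), p-values and false discovery rates, per the file headers. Of per-sample columns, 0 were unmapped.

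The column of sham-empty replicate 3 summed to 22859, and in 92.6% of matched genes it equalled the number of same-strand annotated genes in the gene and 10000 bp downstream. It was left out. In the same region, 87.7% of matched genes had another annotated gene on either strand, whose reads they may share. Neighbours with at least 0.5 of a gene's own count are mostly named. Of 12145 symbols, 11356 matched GENCODE M21 directly, 591 through an older symbol and 198 not at all.

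The main test was edgeR's quasi-likelihood test (edgeR 4.0.16, R 4.3.3, TMM, filterByExpr) on the counts of 11 libraries with 4 group means and no block. Adjusted p is Benjamini-Hochberg over all genes tested, and a call is an adjusted p under 0.05. Intervals are 95%. Alternatives used DESeq2 1.42.0, limma 3.58.1, a replicate block, a length correction together with that block, the compared libraries alone and each library left out. Distances used log2 CPM with a prior count of 2. The scripts were tested on simulated data. Replicates were cultures dissected on distinct days, per the series' design text, so numbers pair libraries. Deviations of same-numbered libraries correlated between -0.09 and 0.235, and of others between -0.242 and 0.201.

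The comparison and the 28 gene lists were chosen with earlier results of these data known. Named genes are those past the adjusted threshold with a mean of at least 10 CPM, the member of each list with the smallest p, and a list of 15 genes. Since 0 genes were called, other named genes were chosen after their values were seen. Some items are not reported here.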

Additional observations from a re-analysis of the deposited data

How the results depend on the processing

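For OGD-miR-29 against sham-empty, the replicate block in the 11-library fit left 0 calls (692 genes at an unadjusted p under 0.05). There were 16 calls in the compared libraries alone, 154 with the block added and 153 by the likelihood ratio test of that fit (both chosen after seeing the data), and 2 after removal of the length trend in a blocked fit. Leaving out single libraries gave 0 to 2. Without a sham-empty library the lone one left is assumed to vary like the other groups. Against OGD-empty, 4501 calls became 2900 after removal of the length trend in a blocked fit and 564 among the 1470 genes alone in their region, where fewer genes were tested. Leaving out single libraries gave 3190 to 4180. Against sham-miR-29, 2 calls became 5 in the compared libraries alone, 5 with the block, 25 after removal of the length trend in a blocked fit, 141 in the compared libraries with the block and 204 by the likelihood ratio test, and stayed at 2 without any single library of those groups. The mean distance to sham-empty was 0.492 over genes of at least 20 CPM, 0.734 with a prior count of 0.5 and 0.581 to 0.712 without single libraries. Of the named genes' fold changes 0 reversed as calls, and 24 gene-by-setting values passed the threshold that did not in the 11-library fit, for Mt1, Mt2 and, in the compared libraries with the block, Pfkm, Gabra2, Rpl8, mt-Nd3, Tubb3 and Grin2b. The synaptic adhesion median ran from -0.83 to -0.08, the mitochondrially encoded one from -1.01 to -0.65 and the proteasome one from 0.07 to 0.62. What in each setting made the change was not tested. Depth limits the comparison, with a median count per gene of 9 and 16 in the sham-empty libraries.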

Other observations

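Replication-dependent histone genes of the Hist1 cluster, chosen after their values were seen, were among the lower-ranked genes. These genes encode core and linker histones, mostly made in dividing cells. Of 42 Hist1 genes tested, 10 were lower and 0 higher at an unadjusted p under 0.05, where 3.68% and 3.26% of all genes were, and the median log2 fold change was -0.41. Hist1h3c, a histone H3 gene, was at 67.6 and 59.0 CPM in sham-empty and 35.5, 33.1 and 26.0 CPM in OGD-miR-29, without overlap (-0.99 ± 0.23, adjusted p 0.607). In OGD-empty it was at 21.5, 19.0 and 14.5 CPM, lower than sham-empty by -1.76 ± 0.24 (adjusted p 0.00127), so OGD-miR-29 lay between the 2 groups and above OGD-empty by 0.77 ± 0.21 (adjusted p 0.009). Hist1h1c, a linker histone gene, gave -0.84 ± 0.24 relative to sham-empty. Reads of Hist1h3c may be shared with Hist1h1c, and those of near-identical histone genes with each other. The proliferation markers summed to 46.3 to 51.7 CPM in sham-empty and 48.1 to 69.2 CPM in OGD-miR-29.

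Other genes of small p, chosen in the same way, were Tmem170b, Satb1, Nrp1 and Peg3 on the lower side. Tmem170b was at 30.8 and 16.8 CPM in sham-empty and 8.45, 9.45 and 6.25 CPM in OGD-miR-29, below every library of the other 3 groups (-1.49 ± 0.32, adjusted p 0.49), and its fold relative to OGD-empty was -1.43 ± 0.27 (adjusted p 0.000781). Satb1, a chromatin organiser, gave -1.17 ± 0.33, Nrp1, a semaphorin and VEGF receptor, -1.15 ± 0.33, and the imprinted gene Peg3 -0.99 ± 0.28 relative to sham-empty. All 3 were also lower than in OGD-empty, by -1.13 ± 0.26, -1.64 ± 0.26 and -1.26 ± 0.25 (adjusted p 0.00329, 0.000542 and 0.0012). On the higher side Mars, methionyl-tRNA synthetase, was at 23.9 and 30.7 CPM in sham-empty and 49.0, 54.0 and 88.9 CPM in OGD-miR-29 (1.20 ± 0.28, adjusted p 0.607), with reads possibly shared with Mbd6. Arpc4, a subunit of the ARP2/3 actin complex, gave 1.03 ± 0.28.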
